A study of Mus musculus with 6 samples.

Results

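The miRNAs miR-142, miR-223, miR-150 and miR-342 are known from blood cells, and all their arms in the deposited table were followed in the kidney inner medulla of mice lacking Dicer1 in aquaporin-2 expressing cells. They were chosen by name, and the names matched 8 of 1081 mature miRNA entries: both arms of each of the 4 hairpins. Small RNA was sequenced from inner medulla tissue of 3 DicerAQP2Cre+ mice and 3 control mice, all 1 month old. DicerAQP2Cre+ names mice without Dicer1 in cells that express Aqp2, the water channel gene of collecting duct principal cells, so that the deletion is not directed at blood cells, vessels or stroma. The labels call the other mice control and give no further allele for them. The tissue was taken whole, and in such bulk samples fewer cells of a type and less RNA per cell cannot be told apart.

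A mature miRNA is cut from its hairpin by Dicer, is loaded into an Argonaute protein and pairs with target mRNAs mainly through its seed, bases 2 to 8. miR-142 is made throughout the blood lineages and is widely used as a marker of leukocytes. miR-223 belongs to granulocytes, monocytes and platelets. miR-150 is abundant in mature B and T lymphocytes and limits the transcription factor Myb. miR-342 lies within Evl, a gene of an actin regulator, and is found in lymphoid and myeloid cells but also in neurons.

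The mature sequences are shown so that the arms compared can be recognised and their seeds set side by side. RefSeq for GRCm38.p6 gave 7 of the 8 sequences, written 5′ to 3′ with the seed in capitals.
mmu-miR-142a-5p: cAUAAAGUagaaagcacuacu
mmu-miR-142a-3p: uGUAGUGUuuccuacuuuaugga
mmu-miR-223-5p: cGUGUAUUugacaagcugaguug
mmu-miR-223-3p: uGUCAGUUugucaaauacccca
mmu-miR-150-3p: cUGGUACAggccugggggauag
mmu-miR-342-5p: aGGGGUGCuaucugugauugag
mmu-miR-342-3p: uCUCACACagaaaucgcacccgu
The 7 seeds were all different, and 0 of the other mature miRNAs in the RefSeq table had any of them. These 7 entries are thus distinct in sequence, with lengths of 21 to 23 bases. No sequence of miR-150-5p was found, so its seed and length were not compared. The Mir142 hairpin on chromosome 11 is shown because it is the defining leukocyte marker of the set and both of its arms were near 0 here; the mature arms are in capitals.
Mir142: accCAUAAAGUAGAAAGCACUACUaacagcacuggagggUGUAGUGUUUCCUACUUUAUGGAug
In GENCODE annotation of GRCm38, Mir142 lies in an intron of the non-coding RNA Mir142hg and opposite Mir142b. Mir342 lies in an intron of Evl on chromosome 12. Mir223 overlaps an exon of the non-coding F630028O10Rik on chromosome X, with the macrophage gene Vsig4 as a near neighbour, and Mir150 on chromosome 7 lies within no other gene.

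Recovered reads ranged from 2934851 to 7614853 in DicerAQP2Cre+ libraries and from 4924091 to 6780624 in control libraries. Values are normalized reads, that is, reads per mature miRNA divided by the library's size factor, and 1 read was worth between 0.7398 and 1.9596 normalized reads. The columns of the DicerAQP2Cre+ group were recognised from a short form in their names, and every direction rests on that reading. On the second principal component of the tested entries, DicerAQP2Cre+ replicate 3 scored 12.5, while the remaining 5 libraries scored between -5.1 and -0.874. The first component separated the genotypes, with the same library closest to the control side at 2.33. The fold changes of the tested entries are therefore given with and without it.

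The 8 entries covered a wide range of levels, and the entries most specific to leukocytes were close to absent. miR-150-5p averaged 24468 ± 11933 normalized reads in DicerAQP2Cre+ samples and 20281 ± 12940 in control samples (SD, n = 3 each), and ranked 25 of 1081 entries by its mean over all libraries. It held 94.7% of the summed level of the 8 entries, and miR-342-3p held 4.34%. In order of level there followed miR-342-3p, miR-342-5p, miR-150-3p, miR-223-3p, miR-142a-5p, miR-223-5p and miR-142a-3p. The values over the 6 libraries overlapped between miR-150-3p and miR-223-3p, between miR-223-3p and miR-142a-5p, and between miR-223-5p and miR-142a-3p, so the order of these neighbours is not beyond their spread. Each read covers a whole mature miRNA, so no length correction applies, but adapter ligation favours some sequences and a level of one miRNA relative to another is approximate.

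**Figure D1:**
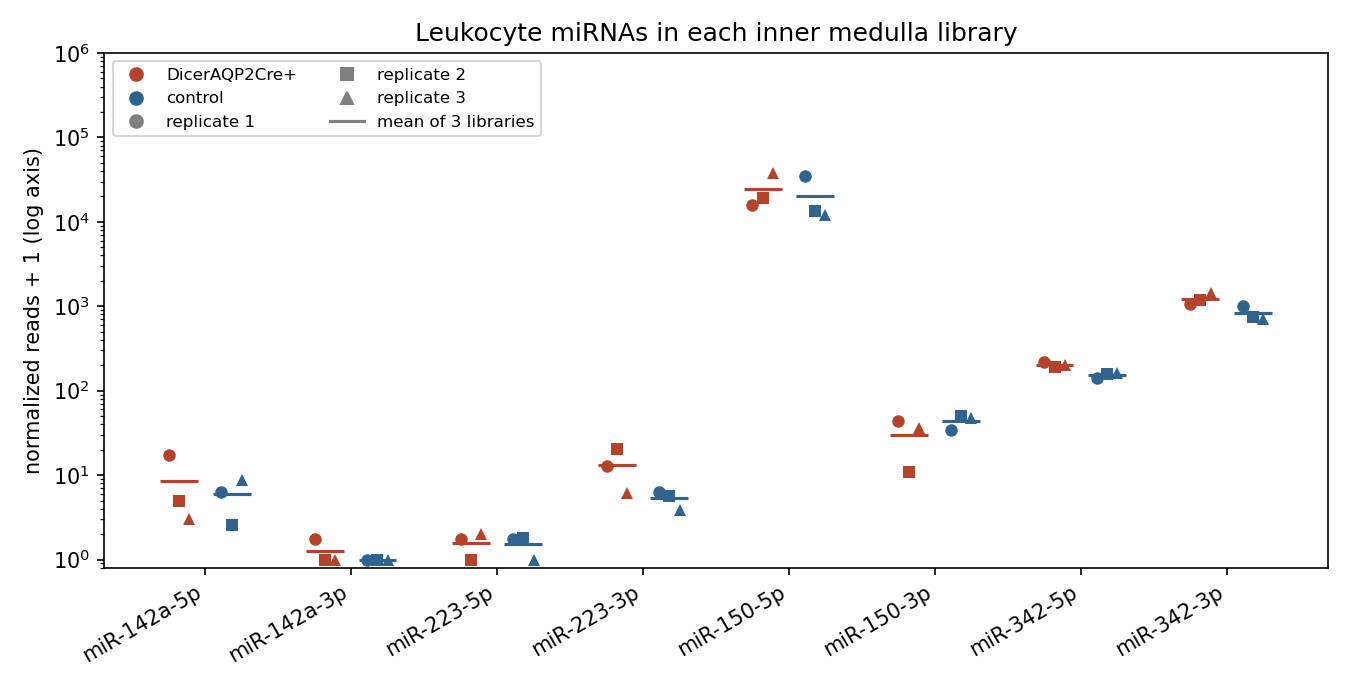
Normalized reads plus 1 of the 8 entries on a log axis, with DicerAQP2Cre+ libraries left of control libraries for each entry, a symbol per replicate and a bar at the mean of 3 libraries. The lowest library of miR-150-5p has 12156 normalized reads, while the highest value of any miR-142 or miR-223 arm is 19.6.

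miR-142, the broadest leukocyte marker of the 4 hairpins, was hardly detected. miR-142a-5p had 16.3, 3.92 and 2.04 normalized reads in DicerAQP2Cre+ replicates 1 to 3, against 5.38, 1.57 and 7.74 in control replicates 1 to 3. These values stand for 22, 2 and 2 reads in the DicerAQP2Cre+ libraries and 7, 2 and 8 reads in the control libraries. The groups overlapped, and a single DicerAQP2Cre+ library was high. By limma its log2 fold change was 0.28 ± 0.73 (SE), with a 95% interval from -1.32 to 1.89 and an adjusted p of 0.814. Its sign depended on single libraries: it was -0.44 without DicerAQP2Cre+ replicate 1 and -0.23 without control replicate 2, and it was 0.82 without DicerAQP2Cre+ replicate 3.

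miR-142a-3p, the arm usually counted as the guide in blood cells, had 1 read in DicerAQP2Cre+ replicate 1 and 0 reads in DicerAQP2Cre+ replicates 2 and 3 and in the 3 control libraries. A count of 0 allows up to 3 reads, which is 5.88 and 3.06 normalized reads in those DicerAQP2Cre+ libraries and 2.31, 2.36 and 2.9 in the control libraries. Such floors, and the intervals of shares below, cover counting error only. No difference between genotypes was detectable at this depth for this arm, which stayed below the filter of a mean of 5 normalized reads and was not tested.

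miR-223-3p, the guide arm of the myeloid and platelet miRNA, had 11.8, 19.6 and 5.11 normalized reads in DicerAQP2Cre+ samples, against 5.38, 4.72 and 2.9 in control samples. The corresponding reads were 16, 10 and 5 in DicerAQP2Cre+ libraries and 7, 6 and 3 in control libraries. DicerAQP2Cre+ replicates 1 and 2 were above all controls, whereas replicate 3 was within their range. The log2 fold change was 1.17 ± 0.53, with a 95% interval from -0.01 to 2.35 and a limma adjusted p of 0.185. Without DicerAQP2Cre+ replicate 3 it was 1.64 and passed, with a limma adjusted p of 0.037, in a fit that called 9.33% of all tested entries higher. In that fit the DicerAQP2Cre+ group has 2 libraries, with 16 and 10 reads of this miRNA, and the library left out is the lowest of its group. Without DicerAQP2Cre+ replicate 2, the highest, the log2 fold change was 0.76 (limma adjusted p = 0.479).

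miR-223-5p, the other arm, had 1, 0 and 1 reads in DicerAQP2Cre+ replicates 1 to 3 and 1, 1 and 0 reads in control replicates 1 to 3. It was below the filter and was not tested. Together the arms of miR-142 and miR-223 took 0.000525%, 0.000409% and 0.00014% of all reads in DicerAQP2Cre+ replicates 1 to 3, against 0.000221%, 0.000145% and 0.000223% in control replicates 1 to 3. The exact binomial 95% interval of DicerAQP2Cre+ replicate 1, from 0.000375 to 0.000715%, lay above those of control replicates 1 and 2, from 0.000124 to 0.000365% and from 6.63e-05 to 0.000275%. It overlapped that of control replicate 3, from 0.000112 to 0.0004%. The interval of DicerAQP2Cre+ replicate 2, from 0.000211 to 0.000714%, overlapped those of all 3 control libraries. So did that of DicerAQP2Cre+ replicate 3, from 6.07e-05 to 0.000277%. The summed level of these arms was 29.6, 23.5 and 8.17 normalized reads in DicerAQP2Cre+ samples, with a mean of 20.4, against 11.5, 7.07 and 10.6 in control samples, with a mean of 9.75.

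miR-150-5p, the lymphocyte miRNA, differed more between mice of the same genotype than between the genotypes. It stood at 15893, 19416 and 38097 normalized reads in DicerAQP2Cre+ replicates 1 to 3, against 35203, 13483 and 12156 in control replicates 1 to 3. A single library of each genotype, DicerAQP2Cre+ replicate 3 and control replicate 1, was high, and the groups overlapped. The log2 fold change was 0.34 ± 0.42, with a 95% interval from -0.58 to 1.27 and a limma adjusted p of 0.648. Without DicerAQP2Cre+ replicate 3 it was -0.03. The interval therefore leaves room for a level between 0.667 and 2.41 times that of controls. Depth was not limiting for this entry, since each library held at least 9908 of its reads.

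The residual spread of miR-150-5p, 0.76 on the log2 scale, was the highest among the 38 tested entries whose mean lay within a factor of 4 of its own, where the median was 0.28. miR-342-5p stood at the other end, with a residual spread of 0.1 against a median of 0.33 over 155 entries of like level, of which 153 had a larger one. miR-342-3p had 0.26 against a median of 0.29 over 100 entries.

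miR-150-3p, the passenger arm, had 42.9, 9.8 and 34.7 normalized reads in DicerAQP2Cre+ samples, against 33.1, 49.5 and 46.5 in control samples. The low value of DicerAQP2Cre+ replicate 2 came from 5 reads in the shallowest library, and the groups overlapped. The log2 fold change was -0.76 ± 0.49, with a 95% interval from -1.84 to 0.33 and a limma adjusted p of 0.336. It was the single tested entry of the 8 with a fold change below 0, and the value was -0.13 without DicerAQP2Cre+ replicate 2 and -0.99 without DicerAQP2Cre+ replicate 3.

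Both arms of miR-342 had larger means in DicerAQP2Cre+ samples, and neither passed the threshold over all entries. miR-342-3p, the guide arm, had 1064, 1172 and 1450 normalized reads in DicerAQP2Cre+ replicates 1 to 3, against 1019, 737 and 714 in control replicates 1 to 3. In normalized reads the groups did not overlap, but DicerAQP2Cre+ replicate 1 and control replicate 1 lay close together. As a share of library reads the groups overlapped, with 0.0189% in DicerAQP2Cre+ replicate 1 and 0.0195% in control replicate 1. Its level was 1.5 times that of controls, with a log2 fold change of 0.58 ± 0.23 and a 95% interval from 0.08 to 1.09. The unadjusted limma p was 0.0279 and the adjusted p 0.13, and edgeR and DESeq2 gave adjusted p values of 0.0994 and 0.133. With libraries set to equal totals the fold change was 0.37, and without DicerAQP2Cre+ replicate 3 it was 0.46.

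miR-342-5p had 215, 192 and 201 normalized reads in DicerAQP2Cre+ samples, against 139, 157 and 162 in control samples. In normalized reads every DicerAQP2Cre+ library was above every control library. As a share of library reads the groups overlapped, with 0.00334% in DicerAQP2Cre+ replicate 2 and 0.00339% in control replicate 3. The log2 fold change was 0.41 ± 0.22, with a 95% interval from -0.08 to 0.9 and a limma adjusted p of 0.254. Without DicerAQP2Cre+ replicate 3 the value was again 0.41. Equal totals gave 0.2, and this scaling also set the median of all tested entries at -0.21 in place of -0.01.

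**Figure D2:**
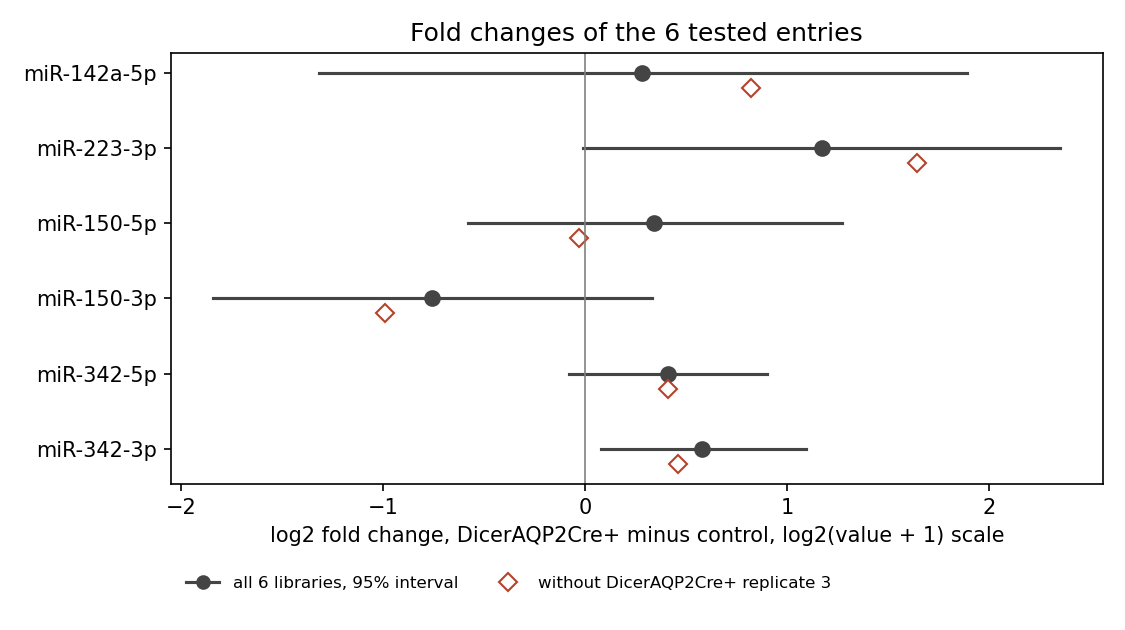
Log2 fold changes (DicerAQP2Cre+ minus control, on the log2(value + 1) scale) of the 6 tested entries, with filled circles and 95% intervals from limma over all 6 libraries and open diamonds for the fit without DicerAQP2Cre+ replicate 3. The interval of miR-342-3p, from 0.08 to 1.09, is the one that does not include 0, and miR-223-3p and miR-142a-5p move most when that library is left out.

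Over the comparison as a whole, 6 of the 8 entries passed the filter, and limma called 0 of these 6 at an adjusted p under 0.05, whereas 8.46% of all 461 tested entries were called. edgeR and DESeq2 on recovered reads called 0 as well, where they called 9.11% and 10.6% of all entries. At an unadjusted p under 0.05, limma had 1 of the 6, edgeR 2 and DESeq2 1, while they had 28.0%, 27.3% and 24.9% of all entries in that order. In normalized reads the groups overlapped in 4 of the 6 and did not in 2, both higher in DicerAQP2Cre+ samples. Of all 461 tested entries, the groups overlapped in 306. They did not overlap in 72 with DicerAQP2Cre+ higher (15.6%) and in 83 with DicerAQP2Cre+ lower. The median log2 fold change of the 6 was 0.37, against -0.01 over all tested entries, with 5 of the 6 above 0.

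The arms of a hairpin come from the same precursor. Their plain read ratio within a library does not depend on the size factor, whereas the log2 ratios tested here add 1 normalized read to each arm and so depend on it where an arm is low, as in miR-142a and miR-223. For miR-150 there were 370, 1982 and 1097 reads of the 5p arm per read of the 3p arm in DicerAQP2Cre+ replicates 1 to 3, against 1065, 272 and 262 in control replicates 1 to 3. The ratio was high in the same libraries in which miR-150-5p was high, and also in DicerAQP2Cre+ replicate 2, in which miR-150-3p was low. On the log2 scale it averaged 9.79 ± 1.18 in DicerAQP2Cre+ samples and 8.69 ± 1.14 in control samples (SD, n = 3 each), a difference of 1.1 (p = 0.2 in an exact two-sided permutation test).

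The 3p arm of miR-342 outnumbered the 5p arm in all 6 libraries. The 5p arm had 0.202, 0.164 and 0.139 reads per read of the 3p arm in DicerAQP2Cre+ samples, against 0.137, 0.213 and 0.226 in control samples, and the groups overlapped. The log2 ratios differed by -0.18 (p = 0.6 in the same exact permutation test). For miR-142a and miR-223 the differences were 0.02 and -1.12, from arms at 0 to 22 reads, with exact permutation p values of 1.0 and 0.4. With 3 against 3 libraries the smallest possible p is 0.1, and the p values adjusted over the 4 hairpins were between 0.8 and 1.0.

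**Figure D3:**
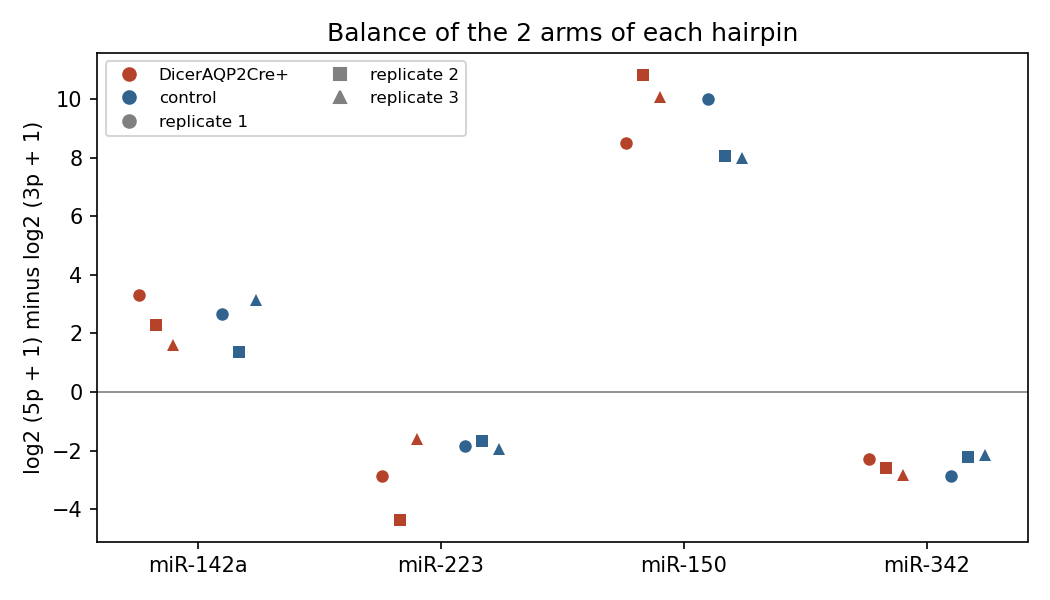
Log2 ratio of the 5p to the 3p arm, each plus 1 normalized read, for the 4 hairpins, with DicerAQP2Cre+ libraries left of control libraries and a symbol per replicate. The 5p arm exceeds the 3p arm of miR-150, and the 3p arm exceeds the 5p arm of miR-342, in every library; the points of miR-142a and miR-223 rest on arms at 0 to 22 reads.

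The libraries in which miR-150-5p was high were looked at for the other hairpins, as a description with no test. Relative to its own mean over the 6 libraries on the log2 scale, miR-150-5p was at 0.92 in DicerAQP2Cre+ replicate 3 and at 0.8 in control replicate 1. In the same libraries miR-223-3p was at -0.36 and -0.29, and miR-142a-5p at -0.92 and 0.14. miR-342-3p was at 0.54 and 0.03 there, its highest values within each genotype. The other arm, miR-342-5p, was at 0.2 and -0.33, the latter its lowest value over the 6 libraries.

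The entries nearest in profile were sought among 256 tested entries with a mean of at least 50 normalized reads, by the root mean square difference of centred log2 values over the 6 libraries. For miR-342-3p these were miR-3102-3p and miR-204-5p, a kidney epithelial miRNA, each with a difference of 0.11 and miR-181c-5p with 0.16, where the median entry had 0.52. For miR-150-5p the nearest were miR-3547-3p (0.38), miR-3102-3p (0.39) and miR-181a-1-3p (0.41), with a median of 0.74. For miR-223-3p they were miR-340-5p (0.29), miR-132-3p (0.38) and miR-15b-5p (0.38), with a median of 0.92. For miR-142a-5p the nearest, miR-433-3p, was at 0.65, with a median of 0.99. miR-18a-3p and the stromal miR-199a-5p followed at 0.67 each. The profile of miR-142a-5p rests on 2 to 22 reads per library and that of miR-223-3p on 3 to 16, so counting error enters both. The nearest of 256 entries lie below the median by construction, and a shared cell type was not tested.

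**Figure D4:**
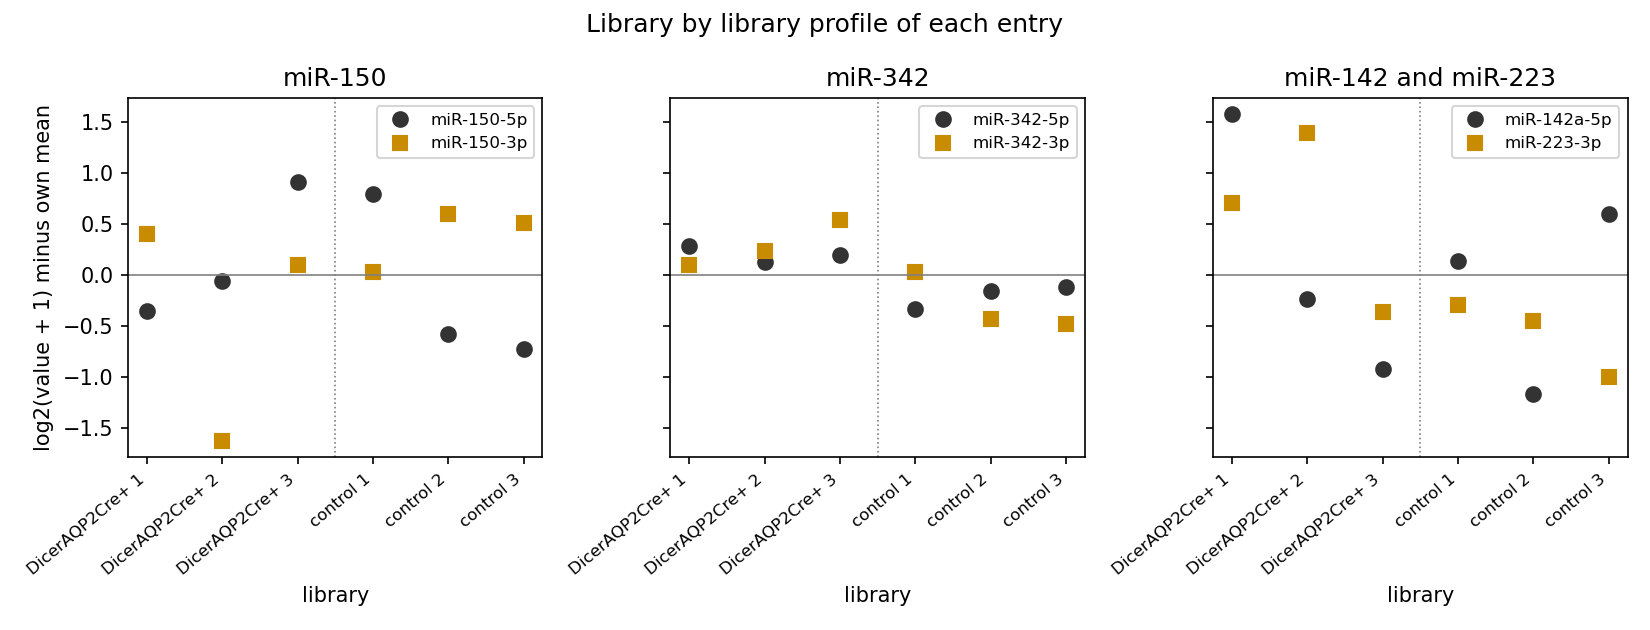
Log2(value + 1) of each entry minus its own mean over the 6 libraries, with DicerAQP2Cre+ libraries left of the dotted line and control libraries right of it. miR-342-5p lies above 0 in the 3 DicerAQP2Cre+ libraries and below 0 in the controls, while miR-150-5p is high in DicerAQP2Cre+ replicate 3 and control replicate 1.

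Other leukocyte miRNAs gave no common direction. In a list of miR-155, miR-146a, miR-146b, miR-147 and miR-511, 4 of 8 entries were tested and 0 passed in limma, 2 of them above 0, with a median log2 fold change of -0.28. The most abundant, miR-155-5p, which is induced in activated lymphocytes and macrophages, had 112, 141 and 407 normalized reads in DicerAQP2Cre+ samples, against 468, 551 and 536 in control samples (log2 fold change -1.47, limma adjusted p = 0.0512). Without DicerAQP2Cre+ replicate 3 it was -2.03 and passed (limma adjusted p = 3.87e-05), in a fit that called 13.4% of all entries lower, and the median of the list was then 0.16. miR-511-3p and miR-511-5p, from a macrophage gene, had 3 and 10 reads over the DicerAQP2Cre+ libraries and 5 and 0 reads over the control libraries.

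The summed level of that list ran from 391 to 612 normalized reads in DicerAQP2Cre+ libraries and from 625 to 812 in control libraries. Within it miR-155-5p averaged 220 in DicerAQP2Cre+ and 518 in control samples. In the same order miR-146a-5p averaged 163 and 127, miR-146b-5p 76.8 and 74.9, and miR-147-3p 9.18 and 9.9. Among erythroid entries, 0 of 4 tested passed, of which miR-486a-3p and miR-486b-3p held identical values and so are a single measurement. Of this list miR-451a, the defining one, averaged 18.7 ± 7.07 normalized reads in DicerAQP2Cre+ samples and 23.8 ± 7.23 in control samples. The erythroid sum, which counts those reads under both names, ran from 66121 to 98866 in DicerAQP2Cre+ libraries and from 84722 to 147341 in control libraries, nearly all of it the joined entry of miR-486a-5p and miR-486b-5p, which muscle also makes. The endothelial miR-126a-3p had 557, 641 and 1037 normalized reads in DicerAQP2Cre+ samples, against 821, 743 and 836 in control samples, and 0 of 2 entries passed. The part of blood, vessel or other cells in the values of miR-150-5p and miR-342 was not tested.

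Smooth muscle and stromal entries had 2 of 8 tested called higher, where limma called 3.47% of all entries higher, and 0 lower, with a median of 0.62, and their sum ran from 27753 to 40289 in DicerAQP2Cre+ libraries, above the 23401 to 24725 of control libraries. The miR-200 family, which marks epithelium including the collecting duct, had 5 of 8 tested called lower, where limma called 4.99% of all entries lower, and a median of -0.93. Without DicerAQP2Cre+ replicate 3, limma called 5 of the 8 stromal entries higher and 8 of the 8 miR-200 entries lower, with medians of 0.97 and -0.96. That fit called 9.33% of all tested entries higher and 13.4% lower, or 22.8% in either direction. The median of miR-142, miR-223, miR-150 and miR-342 in it was 0.43, with 1 of 6 called. The endothelial and erythroid medians were then -0.28 and -0.3, and -0.2 and -0.19 over all libraries, with 0 called. For the lists, leaving out this library was chosen after the data were seen.

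**Figure D5:**
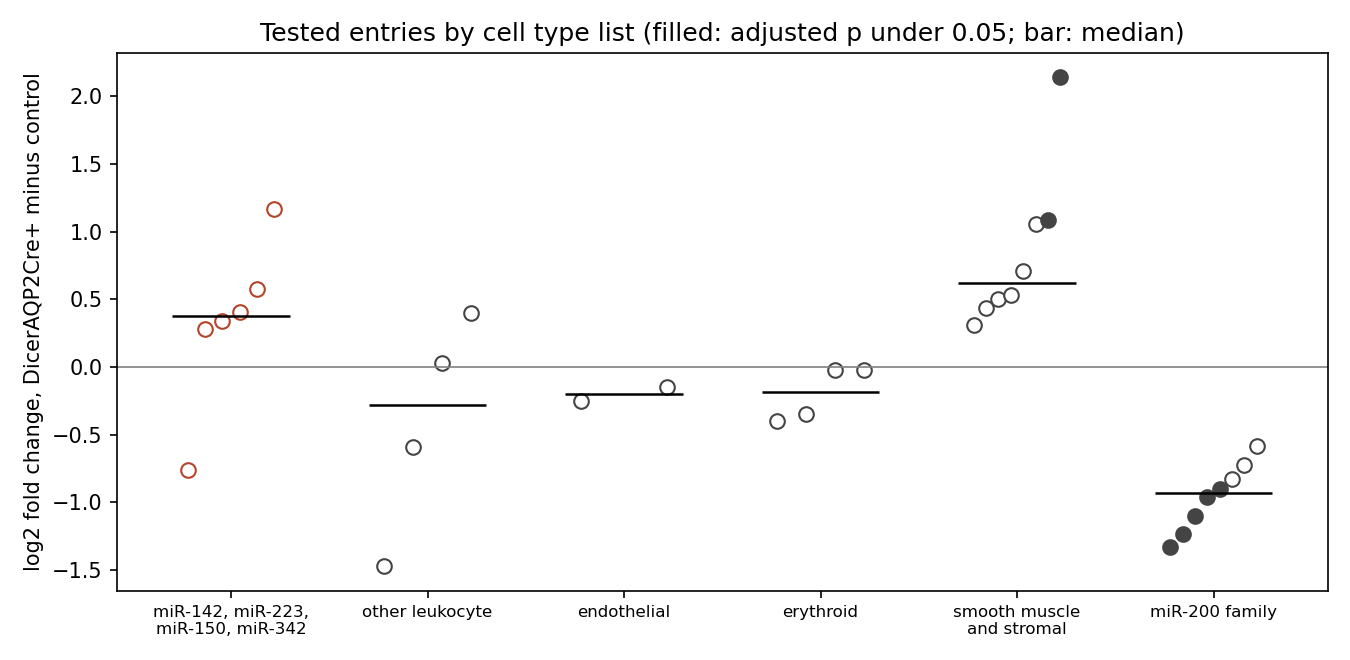
Log2 fold changes (DicerAQP2Cre+ minus control) of the tested entries of the 4 hairpins and of 5 cell type lists, filled where the limma adjusted p was under 0.05, with a bar at the median of each list. The 6 entries of miR-142, miR-223, miR-150 and miR-342 are all open, with a median of 0.37, whereas 5 of the 8 tested miR-200 entries are filled and lower.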

How the data were processed

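Small RNA libraries were made from inner medulla RNA with the TruSeq small-RNA protocol, per the labels' protocols. The deposited signal values are normalized reads per mature miRNA. Per the submitters' processing notes FastQC 0.11.3, DESeq2 and the build mm9 were used; aligner, read counter and miRNA annotation: not given in the sources used here. Of the deposited values, 100.0% were whole multiples of 1 read (tolerance 0.01 read, largest deviation 0.002), so reads were recovered, and size factors recomputed by DESeq2 matched. Libraries of a genotype differed by more than sampling noise.

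The main test was limma 3.58.1 (R 4.3.3), two-sided, with a mean-variance trend, on log2(value + 1) of the 461 entries with a mean of at least 5, with Benjamini-Hochberg adjustment over all of them. edgeR 4.0.16 and DESeq2 1.42.0 on recovered reads, other pseudocounts, filters and scalings, a replicate block and leaving out libraries were alternatives. The main limma fit and the edgeR and DESeq2 fits were tested on simulated data, and the other alternatives were not. The arm ratios of the 4 hairpins were compared by exact permutation (scipy 1.17.1). The text names every arm of the 4 hairpins, the 3 nearest entries to the most abundant arm of each, and the most abundant entries of the cell type lists; other names were chosen after their values were seen. The members and lists were chosen with earlier results of these data known. The series describes separate mice. No mm9 annotation was used, so no coordinates are printed.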

Additional observations from a re-analysis of the deposited data

How the results depend on the processing

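No entry was called under the 10 alternatives that kept all 6 libraries, of which thinning to the shallowest library was chosen after seeing the data. Leaving out each library gave 0 to 1 calls, the 1 being miR-223-3p without DicerAQP2Cre+ replicate 3 (log2 fold change 1.64). Ranges of log2 fold changes over libraries left out were -0.44 to 0.82 for miR-142a-5p, 0.76 to 1.64 for miR-223-3p, -0.03 to 0.83 for miR-150-5p, -1.14 to -0.13 for miR-150-3p, 0.34 to 0.45 for miR-342-5p and 0.46 to 0.75 for miR-342-3p. With the mean filter of 50, miR-142a-5p, miR-223-3p and miR-150-3p were not tested. The summed level of the 8 entries had a log2 difference of 0.35, with 0.14 as a share of library totals, 0.53 without miR-150-5p (chosen after seeing the data), and -0.01 to 0.82 with a library left out. The difference in arm ratio of miR-142a was 0.02, but -0.13 with a pseudocount of 0.5 and -0.5 to 0.42 with a library left out; that of miR-150 was 0.59 to 1.76, of miR-223 -1.79 to -0.41 and of miR-342 -0.4 to -0.04. The cause was not tested.

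Same-numbered libraries of the genotypes share a replicate number in the labels, which name no other link. Their deviations from the group means had correlations of -0.0589, 0.00541 and 0.0551, and not every library correlated best with its own number. Such correlations cannot settle whether these libraries were collected or prepared together, since shared handling need not leave a trace in them. With the replicate block the count of called entries of the 4 hairpins was 0, and their fold changes kept their values, such as 0.58 for miR-342-3p (limma adjusted p = 0.173). With 3 libraries per genotype, and at most 22 reads per library of miR-142a-5p and 16 of miR-223-3p, the counting error of these entries is wide.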

Other observations

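DicerAQP2Cre+ replicate 1 held most of the few reads of both miR-142a-5p and miR-511-5p, a miRNA from an intron of the macrophage mannose receptor gene, a pairing chosen after the values were seen. Of the 26 reads of miR-142a-5p in the DicerAQP2Cre+ group, 22 lay in that library, which was also the deepest. Of the 10 reads of miR-511-5p in that group, 9 lay there, while the 3 control libraries had 0. The other arm, miR-511-3p, had 1, 0 and 2 reads in DicerAQP2Cre+ replicates 1 to 3, against 4, 1 and 0 reads in control replicates 1 to 3. miR-155-5p was at its lowest in DicerAQP2Cre+ replicate 1, with 112 normalized reads. miR-147-3p, which is induced in activated macrophages, had 12, 9 and 1 reads in DicerAQP2Cre+ replicates 1 to 3, against 13, 14 and 9 reads in control replicates 1 to 3. miR-150-5p was at its lowest within the group, 15893 normalized reads, in DicerAQP2Cre+ replicate 1.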
